A study of Mus musculus with 30 samples.

Results

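Spleens of LPS-treated lincRNA-Cox2 knockout mice were compared with spleens of LPS-treated lincRNA-Cox2 mutant mice, over all 18845 entries of the deposited spleen table. The members are the 3 libraries labelled knockout with LPS and the 3 labelled mutant with LPS, 6 of the 30 libraries of the study. Both groups are 8-week-old C57BL/6 mice that received 20 mg/kg LPS (lipopolysaccharide, a bacterial cell wall component) by intraperitoneal injection and were sampled after 6 h, and each carries a lesion of lincRNA-Cox2. The other spleen groups are wild type with LPS (3 libraries) and wild type, mutant and knockout with PBS (2 libraries each). How the mutant and knockout alleles were made is not given in the sources used here. The labels do not say that the libraries of a group come from separate animals, so adjusted p-values measure a spread between libraries. Which libraries entered the authors' fit is not stated, so that spread may not be of these 6 alone.

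LincRNA-Cox2, a long noncoding RNA, is encoded beside Ptgs2, the gene of cyclooxygenase 2, and both are induced in myeloid cells by inflammatory signals. LPS acts through Toll-like receptor 4, which drives NF-kB and interferon programs in macrophages and dendritic cells. The mouse spleen filters blood, houses B and T cells, and is also a site where neutrophils, erythrocytes and platelets are made, so its RNA holds transcripts of immature blood cells beside those of lymphocytes. Neutrophils fill their granules in a fixed order as they mature. The serine proteases of the primary granules (Elane, Prtn3, Ctsg) are transcribed first, and the proteins of secondary granules (Ltf, Camp) later.

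With LPS, knockout spleens held less RNA of neutrophil granule genes than mutant spleens, and more RNA of a small set of LPS-induced genes. Of 11871 entries with an adjusted p, 21 were called at an adjusted p under 0.05 in the authors' deposited table (0.177%). Of these, 16 were lower in the knockout (0.135%) and 5 were higher (0.0421%). At an adjusted p up to 0.1, where the authors' own marks in the deposited table end, 44 entries were called (0.371%), 33 lower (0.278%) and 11 higher (0.0927%). The median log2 fold over all tested entries was 0.01, and 49.3% of them lay below 0. All folds are log2, knockout over mutant, as the authors' deposited table gives them, so a negative fold is lower in the knockout.

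**Figure D1:**
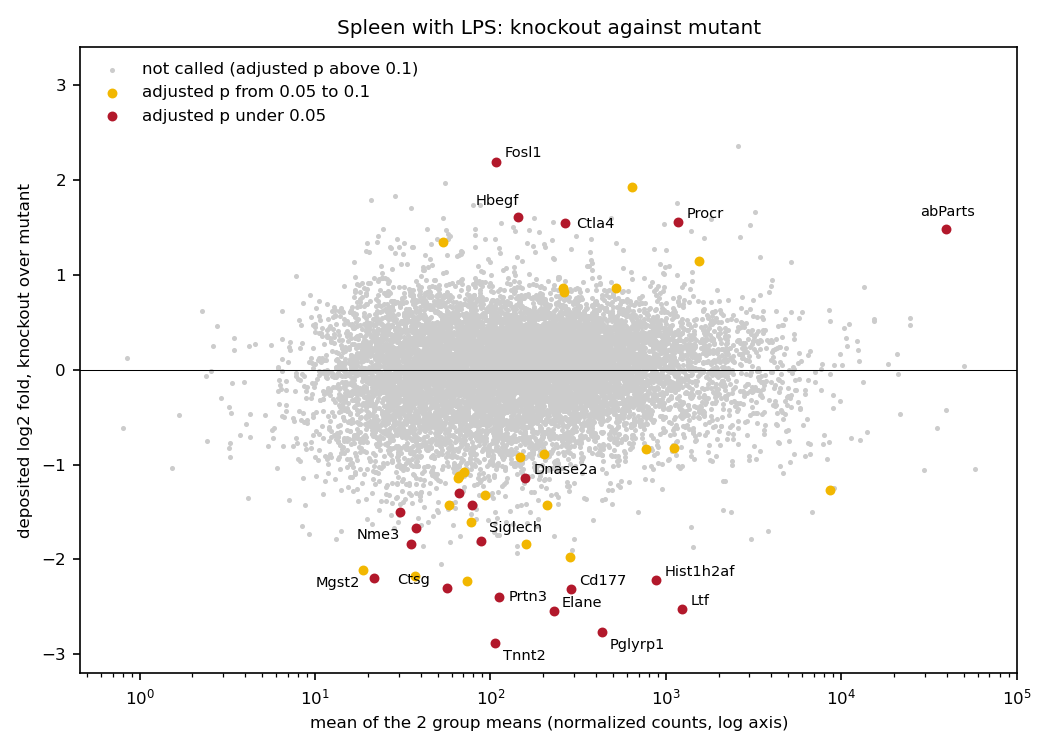
Each point is 1 of 11871 tested entries; the x axis is the mean of the mutant and knockout LPS group means in normalized counts (log axis), and the y axis is the deposited log2 fold, knockout over mutant. Red points are the 21 entries at an adjusted p under 0.05, 16 below 0 and 5 above 0, and yellow points those up to 0.1.

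The 2 groups differed in depth and in sex-linked genes. Group means were deposited, not values of single libraries, but reads of single libraries were recovered for some genes, since each read adds a fixed step to a group mean. The steps gave estimated totals of 7.62, 2.42 and 0.940 M reads for the mutant libraries and 6.21, 5.07 and 4.48 M for the knockout libraries. They cannot be tied to library numbers and are called here the deepest, middle and shallowest of their group. The authors' mean of Xist, the RNA of the inactive X chromosome, was 4670 in mutant, 33.7 in knockout and 31.3 in wild type spleens with LPS, and 2470 to 4040 in the 3 PBS groups. The Y-linked Eif2s3y had authors' means of 3.79 in the mutant and 265 in the knockout with LPS, Kdm5d 3.13 and 92.6, and Uty 1.78 and 68.7. The mutant mean of Uty corresponds to 1 read in the shallowest library. One of 2 entries of Ddx3y stood at 14.0 against 601 and the other at 12.0 against 434. No sex-linked gene was called. Xist had a fold of -1.50 with an adjusted p of 0.431 from the authors' deposited table. Taken from its group means with a pseudocount of 1, its log2 ratio was -7.07. For Eif2s3y the fold was 1.5 and this ratio 5.80. The folds of these genes were thus far smaller than their ratios of means. A fold, or a list median of folds, is therefore not read here as the size of a difference in means. Both groups carried the markers of their labelled organ, with authors' means of 859 in the mutant and 806 in the knockout for Spic of red pulp macrophages and 16.7 and 14.8 for Tlx1 of spleen stroma. Wild type with LPS was like the knockout in the sex-linked genes, with an Eif2s3y mean of 171. The PBS groups held both Xist and Y-linked RNA, with Eif2s3y means of 137 in mutant, 155 in knockout and 102 in wild type. Sex and genotype cannot be told apart in the differences between knockout and mutant spleens with LPS. The same holds for mutant against wild type with LPS. Within a genotype, sex and LPS cannot be told apart between LPS and PBS means. The Eif2s3y mean with LPS was below the PBS mean in the mutant and above it in the knockout and in wild type.

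The targeted RNA was at or near 0 in both lines. LincRNA-Cox2 (GENCODE name Ptgs2os2, chromosome 1, 150159043 to 150164948, mm10) had authors' means of 3.53 normalized counts in LPS-treated wild type spleens, 0 in the mutant and 0.322 in the knockout. The knockout value corresponds to 1 read in the middle library. A count of 0 over the 3 mutant libraries allows a mean of up to 1.37, counting error only. The wild type mean was 2.57 times that bound, with its own counting error left out. Neither line was called against wild type with LPS. The knockout fold was -1.17 with an adjusted p of 0.630 from the authors' deposited table, and the mutant fold was -1.13. Ptgs2 (chromosome 1, 150100031 to 150108227) had authors' means of 214 in wild type, 111 in mutant and 65.8 in knockout spleens with LPS, and 8.89, 5.13 and 1.29 with PBS. Between knockout and mutant its fold was -0.56 with an adjusted p of 0.763 from the authors' deposited table, so the difference did not pass the test. Of the 8 measured genes on the list of the lincRNA-Cox2 neighbourhood none was called, and their median fold was -0.01. Prostaglandin synthesis, with 13 tested genes and a median fold of -0.08, had no call either.

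The genes that fell include 3 of the listed immature neutrophil genes (Elane, Prtn3, Ctsg) and 1 of the listed mature neutrophil genes (Ltf). Pglyrp1 and Cd177, on neither list, are described with them because neutrophils are known to make both; this was chosen after they were called. Elane, neutrophil elastase of the primary granules (chromosome 10, 79886247 to 79888215), had authors' means of 408 in the mutant, 50.6 in the knockout and 83.8 in wild type with LPS, and fell by 2.55 with an adjusted p of 0.00411 from the authors' deposited table. Prtn3, proteinase 3 of the same granules (chromosome 10, 79874476 to 79883174), stood at 199, 24.3 and 39.1 and fell by 2.39, adjusted p 0.0342 from the authors' deposited table. Ctsg, cathepsin G (chromosome 14, 56099881 to 56102574), stood at 98.4, 14.2 and 22.0 and fell by 2.30, adjusted p 0.0241 from the authors' deposited table. The mutant thus had the highest mean of each of these 3 proteases, and wild type lay close to the knockout. None of the 3 was called between mutant and wild type, with folds of 1.94, 1.86 and 1.76, mutant over wild type. Wild type was also like the knockout in sex-linked genes.

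Ltf, the iron-binding lactoferrin of secondary granules (chromosome 9, 111019271 to 111042767), had authors' means of 2232 in the mutant, 258 in the knockout and 472 in wild type, and fell by 2.52, adjusted p 0.0108 from the authors' deposited table. Pglyrp1, a granule protein that binds bacterial peptidoglycan (chromosome 7, 18871331 to 18890459), stood at 788, 72.7 and 213 and fell by 2.77, adjusted p 0.00411 from the authors' deposited table. Cd177, a surface glycoprotein of neutrophils (chromosome 7, 24743983 to 24760311), stood at 500, 74.5 and 134 and fell by 2.31, adjusted p 0.0163 from the authors' deposited table. Camp, the cathelicidin of secondary granules, had the lowest ratio after Xist among genes with a mean of at least 50, with authors' means of 2380 in the mutant, 146 in the knockout and 354 in wild type. Its fold of -3.24 has no adjusted p in the authors' deposited table, as for 40 entries at or above the smallest overall mean that was tested, 19.1.

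To show the promoters of 4 of the genes that fell together, the 250 bases before the start site are given from RefSeq (GRCm38.p6), 5′ to 3′ on the strand of the gene; RefSeq and GENCODE place some of these start sites differently. Capitals mark GAGGAAG, a core of PU.1 sites, and TTGCNNAA, a form of C/EBP sites, searched on both strands; both factors are regulators of myeloid genes. The windows are chr10:79886062-79886311 (+) for Elane, chr10:79879417-79879666 (+) for Prtn3, chr14:56102575-56102824 (-) for Ctsg and chr9:111019042-111019291 (+) for Ltf.
Elane: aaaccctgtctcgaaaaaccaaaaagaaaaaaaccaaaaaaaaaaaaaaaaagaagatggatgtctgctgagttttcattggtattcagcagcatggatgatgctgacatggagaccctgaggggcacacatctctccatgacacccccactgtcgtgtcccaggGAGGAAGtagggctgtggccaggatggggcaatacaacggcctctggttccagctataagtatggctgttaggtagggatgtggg
Prtn3: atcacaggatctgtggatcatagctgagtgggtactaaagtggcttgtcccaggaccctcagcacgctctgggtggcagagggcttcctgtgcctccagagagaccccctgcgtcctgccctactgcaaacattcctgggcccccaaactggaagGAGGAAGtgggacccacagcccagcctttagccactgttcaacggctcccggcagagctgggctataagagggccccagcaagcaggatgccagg
Ctsg: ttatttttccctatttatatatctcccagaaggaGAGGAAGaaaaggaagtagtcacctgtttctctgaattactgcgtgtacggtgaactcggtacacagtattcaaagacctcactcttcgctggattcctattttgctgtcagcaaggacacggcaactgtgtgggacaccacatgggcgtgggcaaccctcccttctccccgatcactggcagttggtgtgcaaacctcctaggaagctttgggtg
Ltf: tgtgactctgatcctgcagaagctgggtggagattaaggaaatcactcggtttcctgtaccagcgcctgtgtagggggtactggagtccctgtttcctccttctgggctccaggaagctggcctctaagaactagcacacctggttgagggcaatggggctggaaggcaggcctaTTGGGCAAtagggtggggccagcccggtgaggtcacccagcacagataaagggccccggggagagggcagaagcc
GAGGAAG lay at -85 to -79 in Elane, at -95 to -89 in Prtn3 and at -216 to -210 in Ctsg, counted from the start site. The Ltf window held TTGCNNAA on the other strand, at -75 to -68. Among 32851 mouse promoters of this length, 10.6% held GAGGAAG, 9.56% TTGCNNAA and 6.75% TGANTCA, a form of AP-1 sites. Some genes have several promoters, and of all 27025 genes 12.0%, 10.8% and 7.82% held these letters in at least 1. Of the 21 called entries 17 had a promoter in the table, and among the 15 of these that were lower, 5 held GAGGAAG, 4 TTGCNNAA and 2 TGANTCA in at least 1 promoter. A match is a run of letters, not a bound site.

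The neutrophil lists as a whole lay below 0. Of the 10 listed genes of immature neutrophils 9 had a fold below 0, the list median was -2.26, and 3 of the 8 tested were called, all lower (Elane, Prtn3, Ctsg). The other members with high means were Ngp, a secondary granule protein at 6370 in the mutant and 1330 in the knockout (fold -1.70, adjusted p 0.276 from the authors' deposited table), and Mpo, myeloperoxidase, at 485 and 99.6 (fold -1.90, adjusted p 0.101 from the authors' deposited table). Chil1, also made by macrophages as a chitinase-like protein, went the other way at 439 and 771 (fold 0.75, adjusted p 0.519 from the authors' deposited table). Of the 14 listed genes of mature neutrophils 13 lay below 0, with a median of -1.23 and Ltf as the 1 call among 12 tested. S100a9 and S100a8, the calprotectin subunits, had authors' means of 4980 and 2350 in the mutant against 1140 and 502 in the knockout, and Lcn2, the siderophore-binding lipocalin, 10200 against 5650, none called. Csf3r, the receptor of the neutrophil growth factor G-CSF, was level at 319 and 318. Fewer neutrophils and less of these RNAs per cell cannot be told apart in whole spleen.

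The neutrophil genes were closer together between the lines with PBS than with LPS, a difference that was not tested. Elane and Ltf were called on their LPS difference, so a smaller difference with PBS can come from that selection alone. With PBS, Elane had authors' means of 111 in mutant, 90.9 in knockout and 126 in wild type spleens, and Ltf 489, 390 and 719. With LPS, the mutant mean of Elane was above its PBS mean and the knockout and wild type means were below theirs: the log2 ratio of LPS to PBS means (pseudocount 1, no test in the deposited table) was 1.87 in the mutant, -0.83 in the knockout and -0.58 in wild type. For Ltf the ratios were 2.19, -0.59 and -0.61. The LPS and PBS groups of each genotype also differed in Xist or Y-linked RNA, so sex and LPS cannot be told apart in these ratios. The listed immature neutrophil genes summed to 10625.5 in the mutant, 2470 in the knockout and 2668 in wild type with LPS, and to 1905, 1494 and 2803 with PBS. Knockout against mutant with PBS had 0 of 18185 tested entries called (0%) at either threshold; every adjusted p was 1 in the authors' deposited table, and unadjusted p-values were not used here.

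Single libraries show how evenly the mutant group carried these genes. For Ctsg the recovered values were 65.9, 208 and 21.4 normalized counts in the deepest, middle and shallowest mutant library (100, 100 and 4 reads) and 18.9, 11.6 and 12.0 in the knockout libraries (24, 12 and 11 reads). Every mutant library was above every knockout library, but the middle mutant library was far above the other 2, and without it the log2 ratio of means went from -2.71 to -1.55. Fcnb, ficolin B of neutrophil precursors, had 40.2, 328 and 21.4 in the mutant and 23.7, 11.6 and 18.6 in the knockout, so the groups overlapped; its ratio went from -2.79 to -0.75 without the middle mutant library. Itgb2l, an integrin chain of neutrophils, had 27.7, 160 and 5.34 against 11.8, 5.80 and 10.9, overlapped likewise, and its ratio went from -2.63 to -0.73. Fcnb and Itgb2l were called at 0.1 only, with adjusted p-values of 0.0869 and 0.0900 from the authors' deposited table. The knockout libraries had 63.9, 22.2 and 65.7 of Elane and 30.8, 13.5 and 28.4 of Prtn3; the mutant means of these, and of Ltf, Pglyrp1 and Cd177, are too large for single reads to be recovered. Whether the middle mutant library sets their difference was therefore not tested.

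**Figure D2:**
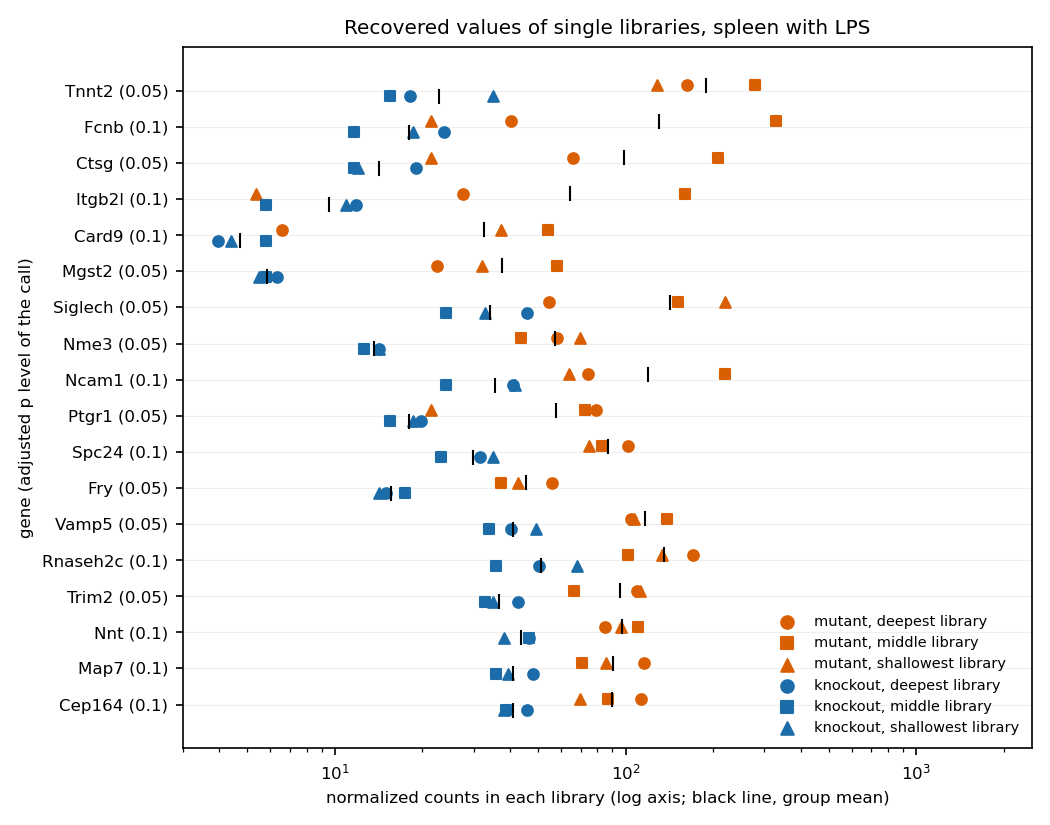
Recovered normalized counts (log axis) of the 18 called entries solved in both groups, with 3 mutant libraries in orange, 3 knockout libraries in blue and black lines at the group means; circles, squares and triangles are the deepest, middle and shallowest library of each group. The groups overlap for Fcnb and Itgb2l and not for the other 16, and the middle mutant library is far to the right for Fcnb, Ctsg, Itgb2l and Ncam1.

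Genes of liver also had most of their mutant reads in the middle library. Cpb2, a plasma carboxypeptidase made by hepatocytes, had 0.659, 35.3 and 5.34 normalized counts in the mutant libraries and 16.6, 57.0 and 58.0 in the knockout libraries. Cyp3a11, a drug-metabolizing enzyme of liver, had 0.659, 18.7 and 0 against 16.6, 26.1 and 31.7, and Aadac, a liver esterase, 0.659, 8.31 and 0 against 6.32, 15.5 and 21.9. Among the mutant libraries all 3 were highest in the middle one, and they had reads in every knockout library. Of 15 listed hepatocyte genes 13 lay above 0 with a median of 0.33 and no call; the authors' mean of Alb was 1570 in the mutant, 2220 in the knockout and 121 in wild type with LPS. All 18 pancreatic acinar genes lay below 0 with a median of -0.57 (-1.35 as a log2 ratio of means) and no call, summing to 53531 in the mutant and 21595 in the knockout. The part of other organs in the differences was not tested.

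Tnnt2, cardiac troponin T of the thin filament (chromosome 1, 135836354 to 135852260), had the smallest adjusted p. Its recovered values were 162, 279 and 128 normalized counts in the mutant libraries and 18.2, 15.5 and 35.0 in the knockout libraries. The groups lay far apart, whichever library was left out: the log2 ratio of means was -3.00, and -3.42 to -2.61 with each library left out in turn. The exact permutation test of 3 against 3 libraries cannot go below 0.1 (two-sided), which is the value it gave here. In the authors' deposited table the fold was -2.88 with an adjusted p of 8.73e-12. Tnnt2 was the exception among the 21 called entries in that its PBS means were also over 2-fold apart, at 86.4 in the mutant, 28.9 in the knockout and 151 in wild type. Other heart genes had low means in both groups: Myh6, a cardiac myosin, was at 5.43 and 2.76 and Tnni3, cardiac troponin I, at 31.4 and 26.0. Of the 20 called entries of known position 2 lay on chromosome 1, Tnnt2 and Ctla4, and 5.99% of tested entries do.

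For 14 of the 16 genes that fell, all but Cd177 and Hist1h2af, the knockout mean with LPS lay below those of the 5 other spleen groups. The genes were called on that same low mean, so this count leans that way by selection and is no result about them. Nme3, a nucleoside diphosphate kinase, had 58.0, 43.7 and 69.4 normalized counts in the mutant libraries and 14.2, 12.6 and 14.2 in the knockout libraries, and fell by 1.83, adjusted p 0.0108 from the authors' deposited table. The wild type mean with LPS was 44.9, and the PBS means were 69.5, 67.9 and 48.5 in mutant, knockout and wild type, a range of 44.9 to 69.5 over the 5 other groups. Vamp5, a vesicle fusion protein, had 104, 139 and 107 against 40.3, 33.8 and 49.2 and fell by 1.43, adjusted p 0.0108 from the authors' deposited table. Fry, a large cytoskeletal scaffold protein, had 56.0, 37.4 and 42.7 against 15.0, 17.4 and 14.2 and fell by 1.50, adjusted p 0.0109 from the authors' deposited table. In these 3 genes the middle mutant library was not set apart.

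Mgst2, a microsomal glutathione transferase that can make leukotriene C4, had 22.4, 58.2 and 32.0 in the mutant against 6.32, 5.80 and 5.47 in the knockout and fell by 2.20, adjusted p 0.0163 from the authors' deposited table. Ptgr1, which inactivates leukotriene B4 and prostaglandins, had 79.1, 72.7 and 21.4 against 19.7, 15.5 and 18.6 and fell by 1.67, adjusted p 0.0163 from the authors' deposited table. Its shallowest mutant library rests on 4 reads and lay just above the knockout libraries. On the list of leukotriene synthesis and receptors, which holds neither gene, 8 of 10 members lay below 0 with a median of -0.68 and no call at 0.05. Alox5ap, the 5-lipoxygenase activating protein, stood at 259 in the mutant and 59.1 in the knockout (fold -1.83, adjusted p 0.0795 from the authors' deposited table), and Lta4h, which makes leukotriene B4, at 316 and 169 (fold -0.88, adjusted p 0.226 from the authors' deposited table).

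Dnase2a, the lysosomal DNase by which macrophages degrade engulfed DNA, fell from an authors' mean of 221 to 93.6 (fold -1.14, adjusted p 0.0108 from the authors' deposited table). Siglech, a surface receptor of plasmacytoid dendritic cells and some macrophages, had 54.7, 152 and 219 in the mutant libraries and 45.8, 24.2 and 32.8 in the knockout libraries and fell by 1.80, adjusted p 0.0108 from the authors' deposited table. It was the 1 call among 9 tested genes of the plasmacytoid list, whose median was -0.03; Bst2 and Tcf4, 2 other members, stood at 1770 and 1540 in the mutant and 1720 and 1260 in the knockout. Trim2, a ubiquitin ligase, had 109, 66.5 and 112 against 42.6, 32.9 and 35.0 and fell by 1.30, adjusted p 0.0342 from the authors' deposited table. For Siglech, as for Ptgr1, the mutant libraries were spread widely, with its deepest library close to the knockout.

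Across the 16 genes that fell, the mutant mean was the highest and the knockout mean the lowest of the 3 genotypes with LPS. On the log2 scale wild type was nearer to the knockout for 9, Elane, Prtn3, Ctsg, Ltf, Pglyrp1 and Cd177 among them, and nearer to the mutant for 7, among them Tnnt2, Nme3, Vamp5, Fry, Mgst2, Siglech and Dnase2a. The LPS mean was above the PBS mean for 11 of the 16 in the mutant and for 1 in the knockout. The 16 were called on these same mutant and knockout LPS means, so both counts lean this way by selection. No share over all entries was counted, and the counts are no result about LPS responses. Comparisons between genotypes and with PBS share their LPS groups, and the differences between them were not tested. Sex-linked RNA also differed between the LPS and PBS groups, and between mutant and wild type with LPS.

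**Figure D3:**
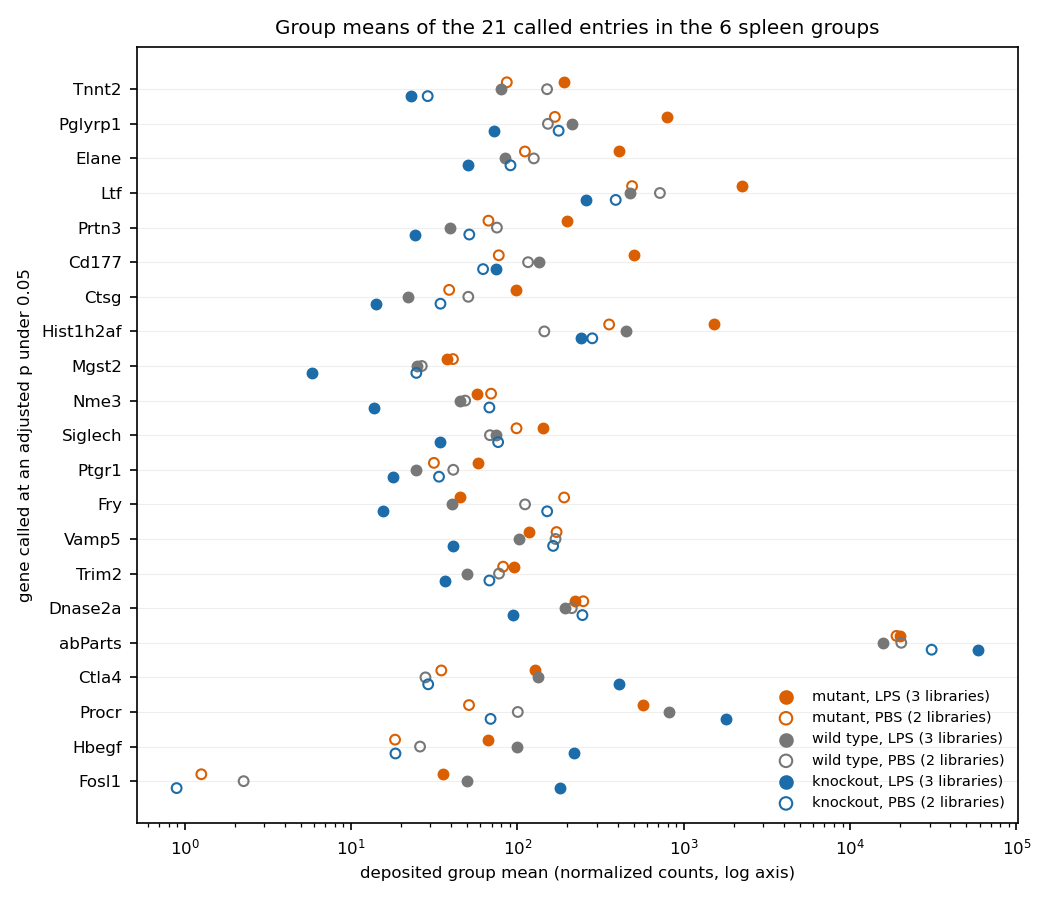
Deposited group means (normalized counts, log axis) of the 21 called entries in the 6 spleen groups, filled for LPS and open for PBS, with the mutant in orange, wild type in grey and the knockout in blue. For the neutrophil genes the filled orange point lies apart to the right; for Nme3, Fry, Vamp5, Mgst2 and Dnase2a the filled blue point lies apart to the left; for Ctla4, Procr, Hbegf and Fosl1 all filled points lie to the right of the open ones.

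The 5 entries that rose include 4 genes that were also higher with LPS than with PBS in every genotype. Ctla4, the inhibitory receptor of activated and regulatory T cells (chromosome 1, 60887000 to 60915832), had 167, 133 and 85.4 normalized counts in the mutant libraries. Its authors' means were 128 in the mutant, 407 in the knockout and 133 in wild type with LPS and 28.0 to 34.9 with PBS, and it rose by 1.54, adjusted p 0.00687 from the authors' deposited table. Foxp3, the factor that defines regulatory T cells, was level at 97.5 and 90.2. The checkpoint list had Ctla4 as the 1 call among 14 tested, with a median of 0.39. Its members with high means stood at 3290 and 5210 for Cd274, the ligand PD-L1, and at 994 and 1720 for Il2ra, the interleukin 2 receptor alpha chain.

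Procr, the endothelial protein C receptor (chromosome 2, 155751117 to 155755471), had authors' means of 569 in the mutant, 1790 in the knockout and 818 in wild type, and rose by 1.55, adjusted p 0.0233 from the authors' deposited table. Hbegf, a growth factor of the EGF family, stood at 66.8, 219 and 99.0 and rose by 1.61, adjusted p 0.0119 from the authors' deposited table; the mutant libraries had 69.9, 66.5 and 64.1. Fosl1, the AP-1 subunit Fra-1 (chromosome 19, 5447547 to 5455946), stood at 35.7, 180 and 49.9 and rose by 2.19, adjusted p 0.0342 from the authors' deposited table; the mutant libraries had 15.2, 33.3 and 58.7. The knockout means of these genes are too large for reads to be recovered, so their spread in the knockout is not known. The fifth entry, abParts, collects parts of antibody genes, a family whose near-identical copies share reads. Its authors' means were 19993 in the mutant, 58821 in the knockout and 15700 in wild type with LPS and 19000, 30900 and 20299 with PBS, and it rose by 1.48, adjusted p 0.00411 from the authors' deposited table.

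Most listed inflammatory cytokine genes lay above 0 without a call at 0.05. Of 25 inflammatory cytokine genes 22 had a fold above 0, with a median of 0.74, and none of the 20 tested was called. Il6 had authors' means of 435 in the mutant, 1520 in the knockout and 747 in wild type (fold 1.53, adjusted p 0.295 from the authors' deposited table), and Ifng 1380, 4690 and 1700 (fold 1.52, adjusted p 0.267 from the authors' deposited table). Il1b stood at 647, 1440 and 934, while Tnf was level at 153, 144 and 148. Of 8 genes of neutrophil-attracting chemokines and their receptors 5 lay above 0 and 3 below, with a median of 0.44. Among them Cxcl5 stood at 231, 1048 and 264 (fold 1.93) and was called at 0.1 with an adjusted p of 0.0566 from the authors' deposited table. Cxcl1 stood at 819, 2780 and 1250 and Cxcl2 at 559, 1440 and 727, neither called, while Pf4 and the receptor Cxcr2 had folds of -0.57 and -0.41 and the receptor Cxcr1 was under 1 normalized count in both groups. Of 16 genes on the list of CC and Cxcr3 chemokines 12 lay above 0, with a median of 0.47 and no call. Ccl5, which attracts T cells, was below 0 at 3870 in the mutant against 2750 (fold -0.46). Homeostatic lymphoid chemokines had a median of -0.01. NF-kB subunits and feedback regulators had a median of 0.27, with 19 of 24 above 0 and none called; Nfkbia, the inhibitor IkB alpha, was at 4630 and 4460. Immediate early genes had a median of 0.45, with 23 of 25 above 0 and Fosl1 as the 1 call among 23 tested.

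Genes of secretion and antibody production lay above 0 as well. Of 16 genes of the unfolded protein response 15 had a fold above 0, with a median of 0.61 and no call at 0.05. Hspa5, the chaperone BiP, stood at 3880 (mutant) and 5680 (knockout), and Herpud1, a component of the degradation machinery of the endoplasmic reticulum, at 367 and 671 (fold 0.86, adjusted p 0.0893 from the authors' deposited table). Of 9 plasma cell genes 8 lay above 0, with a median of 0.75 and none of 8 tested called; Igj, the antibody joining chain, stood at 1930 and 4920, and Xbp1, a factor of secretory cells, at 671 and 1170. B cell markers had a median of 0.04 and T cell markers one of -0.23, with no call. The entry mFLJ00385, named no further in the table, stood at 452 and 4730 with LPS and 783 and 2480 with PBS (fold 2.36, adjusted p 0.101 from the authors' deposited table). Antibody entries did not all go 1 way: Igh-A stood at 12372 and 4877 with LPS and 13100 and 5870 with PBS (fold -1.27, adjusted p 0.0566 from the authors' deposited table).

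Type I interferon response genes lay mostly below 0. Of 37 tested genes 30 lay below 0, with a median of -0.30 and none called; Rsad2, the antiviral enzyme viperin, stood at 10000 and 7850, and Ifit1, which binds viral RNA, at 8241 and 4656. GTPases and other genes of the interferon gamma response had a median of 0.28, with 16 of 23 above 0 and none called.

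Histone and cell cycle genes lay below 0, with 1 call. All 19 measured replication-dependent histone genes lay below 0, with a median of -1.54. Most messages of these genes carry no poly(A) tail. They lay below 0 with PBS too, with a median of -0.915 and summed means of 3818 in the mutant against 1781, while cell cycle genes had a PBS median of -0.09. Abundant long noncoding RNAs, another list on the makeup of the RNA, had a median of -0.47 with LPS, 6 of 9 below 0; the part of RNA makeup in the histone difference was not tested. Hist1h2af, a histone H2A gene (chromosome 13, 23533906 to 23534304), had authors' means of 1530 in the mutant, 240 in the knockout and 452 in wild type, and fell by 2.21, adjusted p 0.0379 from the authors' deposited table. Hist1h1c and Hist1h1e, linker histones, stood at 646 and 612 in the mutant and 220 and 155 in the knockout. Histone copies are nearly identical, so reads of single copies are uncertain. All 26 cell cycle genes lay below 0 with a median of -0.75 and none of 23 tested was called. Mki67, the Ki-67 antigen, stood at 6830 and 3700, and Mcm6, a subunit of the replicative helicase, at 1290 and 607. The 17 measured erythroid genes also lay below 0, with a median of -0.54 and no call; Hbb-bs, adult beta globin, stood at 43000 and 27400. Marco, a scavenger receptor of marginal zone macrophages, stood at 3010 and 1240 (fold -1.17, adjusted p 0.208 from the authors' deposited table), on a list of 7 with a median of -0.96 and no call. The red pulp macrophage list had a median of -0.17 and no call.

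**Figure D4:**
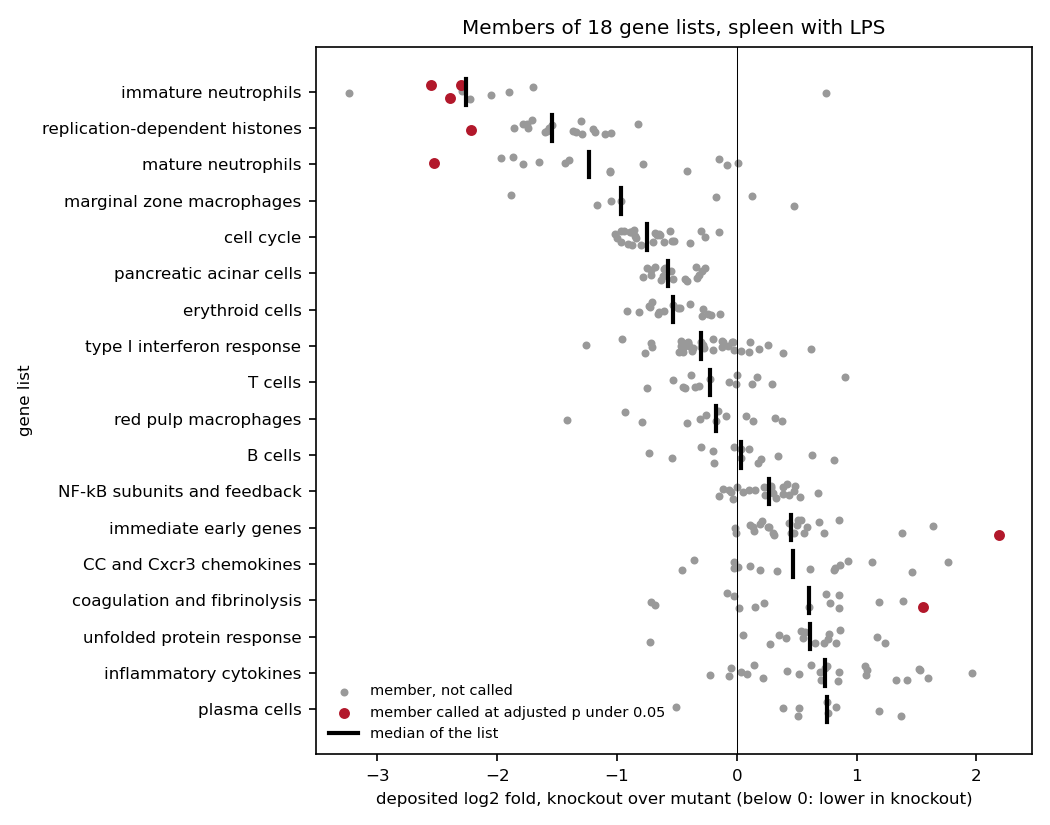
Deposited log2 folds, knockout over mutant, of the members of 18 gene lists (points; red, called at an adjusted p under 0.05) with the median of each list as a black line. Lists run from immature neutrophils at a median of -2.26 to plasma cells at 0.75; the median over all tested entries is 0.01.

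Over called and uncalled entries together, the ratios of group means leaned to the lower side. Among 12943 entries with 10 or more normalized counts in at least 1 of the 2 groups, 713 were at least 2-fold lower in the knockout (5.51%) and 338 at least 2-fold higher (2.61%), from the log2 ratio of means with a pseudocount of 1; the median ratio was 0.00. Apart from the Y-linked genes, and among entries that reached 50 normalized counts in 1 of the groups, the highest ratios belonged to Mup20, a urinary protein made in liver, at 21.0 and 431, to mFLJ00385, and to Ereg, the EGF family ligand epiregulin, at 14.4 and 92.8 (fold 1.60, adjusted p 0.415 from the authors' deposited table). The fold of Mup20 was 1.56 with an adjusted p of 0.358 from the authors' deposited table. A ratio of means has no spread, and none of these 3 was called.

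The same 2 genotypes were also compared with LPS in lung, where 39 of 16030 tested entries were called (0.243%), and 82 (0.512%) at an adjusted p up to 0.1. One symbol, Hist1h2af, was called in both organs, 4.76% of the spleen calls and 2.56% of the lung calls, and in opposite directions: its lung means were 18.0 in the mutant and 119 in the knockout (fold 2.51, adjusted p 2.6e-04 from the authors' deposited table). At the latter level there were 3 shared symbols, 6.82% of the spleen and 3.75% of the lung symbols. Ide, the insulin-degrading enzyme, was higher in the knockout in both, with folds of 0.86 in spleen and 0.89 in lung and adjusted p-values of 0.0620 and 0.00673 from the authors' deposited table. Nnt, the mitochondrial transhydrogenase that makes NADPH, was lower in both, with folds of -1.08 and -1.47 and adjusted p-values of 0.0869 and 4.41e-06 from the authors' deposited table. The spleen libraries of Nnt did not overlap, with 85.0, 110 and 96.1 in the mutant and 46.6, 46.4 and 38.3 in the knockout. Among the neutrophil genes none was called in lung. Their lung folds were 0.11 for Elane, 0.12 for Prtn3, 0.57 for Ctsg, 0.07 for Ltf, -0.60 for Pglyrp1 and 0.03 for Cd177. Of the 21 spleen calls 9 had the same sign in lung, and the share over all entries was not counted. Tnnt2 had a lung fold of 0.29. The risen Ctla4, Procr, Hbegf and Fosl1 had -0.31, -0.71, -0.16 and -0.27 in lung, and abParts 0.68. The difference between the organs was not tested, and lung and spleen libraries may come from the same mice. The listed sex-linked genes had a median fold of 1.50 in lung and 0.89 in spleen. Sex may thus differ between the lung groups too, and its part in the shared calls was not tested.

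**Figure D5:**
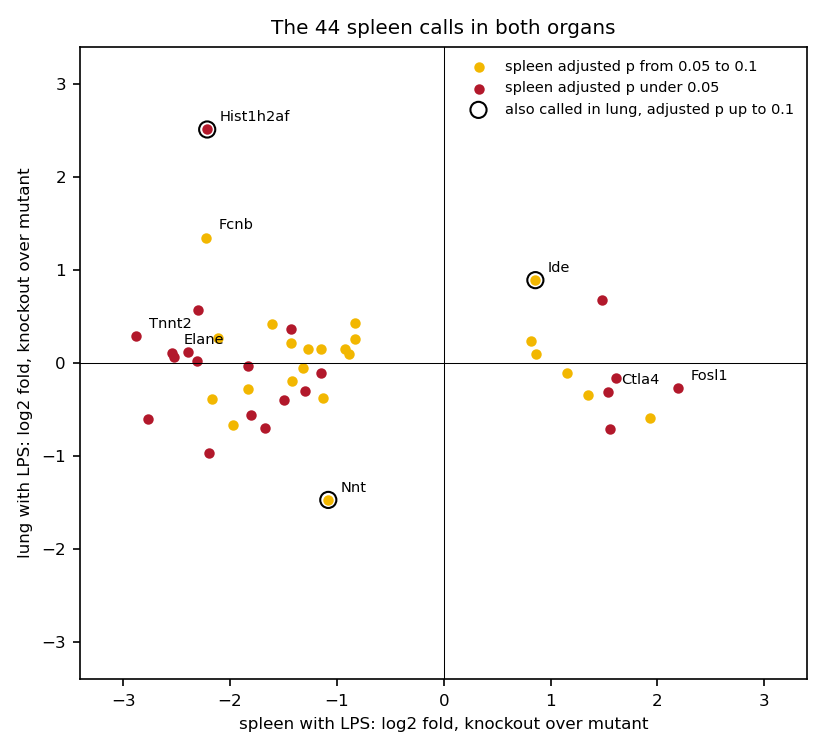
Deposited log2 folds, knockout over mutant with LPS, of the 44 entries called up to an adjusted p of 0.1 in spleen, shown for spleen (x axis) and lung (y axis); circles mark the 3 also called in lung. Hist1h2af lies in opposite directions in the 2 organs, and Ide and Nnt in the same.

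Of the 21 entries called at 0.05, reads could be recovered in both groups for 9, and in all 9 the 3 mutant libraries lay above the 3 knockout libraries. At 0.1 this held for 16 of 18. No entry called higher in the knockout could be solved in both groups, because its knockout mean was too large. That all 18 were lower in the knockout is therefore no result. These entries were called on the same libraries, and of 10 solved entries that were not called 4 did not overlap either. Those 10 are not a sample of all entries. They come from the 72 entries with means to 6 decimals, which include the called ones, and why these were singled out is not stated. Among the 18 called and solved entries, the middle mutant library held the highest mutant value in 9. The shallowest mutant library, of 0.940 M reads, held the lowest in 8. Of the knockout libraries the deepest held the highest knockout value in 10, and the middle the lowest in 13. Against wild type with LPS the knockout had 4 calls among 16572 tested entries (0.0241%; 22, or 0.133%, up to 0.1) and the mutant 1 among 18337 (0.00545%). Of the 21 entries, Tnnt2, Ctla4 and abParts were also called between knockout and wild type, with folds of -1.68, 1.53 and 1.82 and adjusted p-values of 0.0159, 0.0159 and 3.39e-05 from the authors' deposited table. These comparisons share the knockout libraries.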

How the data were processed

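Messenger RNA of mouse lungs and spleens was sequenced in 30 libraries; the 6 spleen libraries of mutant and knockout mice with LPS are described here. STAR 2.5.3a, Bowtie2, SAMtools, bedtools, DESeq2 and mm10 are named in the submitters' processing notes, with no order or settings. Per the file headers, the authors deposited 1 table per tissue with group means, a normalized signal. For each comparison the deposited table gives a log2 fold and an adjusted p-value, treated as a deposited score, and a call mark. Where the authors' DESeq2 output has no adjusted p, a low mean or 1 extreme library can be the reason; which applied is not given.

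Of 18850 spleen lines 5 were broken and left out, 1026 split symbols were rejoined, and 24 symbols turned into dates stayed unnamed. Positions are from GENCODE M21 (93.0% of entries). No table of counts per library was used, so the planned count test gave way to the authors' deposited comparison at an adjusted p under 0.05. Reads of single libraries were solved from 72 group means given to 6 decimals: a mean is a sum of whole reads times 1 step per library. All 36 mutant and 31 knockout means searched had exactly 1 solution within 6e-07; 99.9% of means under 1 were whole combinations of the steps, whose windows cover 0.8% (mutant) and 1.9% (knockout) of that range. The solver was tested on simulated data. Normalized means summed to 5.02 M and 4.90 M. Low depth widens the counting error of single reads, most in the shallowest mutant library.

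Called genes and those with the largest ratios are named, with called and high members (up to 4) of each of 60 lists, save some items that are not reported here; other names, such as Dnase2a, Csf3r, Tnf, Foxp3, Tnni3, Fcnb, Nnt and the liver genes, were chosen after their values were seen, and so was the solving of single libraries. Members and lists were chosen with earlier results of these data known. Python 3.11.15, numpy 2.4.6, pandas 2.3.3, scipy 1.17.1 and matplotlib 3.10.9 were used. Alternatives were other thresholds, filters and pseudocounts, and leaving out each library where solved.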

Additional observations from a re-analysis of the deposited data

How the results depend on the processing

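The counts move with the thresholds, and no called entry changed direction between folds and ratios of means. The targeted RNA, at 0 and 0.322, was too low in both groups for a direction. Going by the authors' deposited table, the count was 44 entries at an adjusted p up to 0.1 (11 higher and 33 lower in the knockout) and 5 under 0.01 (2 higher and 3 lower). Of entries at least 2-fold apart, 1051 in all, 2087 were found with no filter on level (845 higher, 1242 lower) and 585 with a mean of at least 50 (175 higher, 410 lower); with a pseudocount of 5, 222 were higher. The other alternatives kept these counts within 1.5 times. With ratios of means in place of folds, the median of mast cell and basophil genes turned from -0.02 to 0.13 and that of conventional dendritic cells went from -0.02 to 0; the medians of all other lists of more than 1 gene kept their sign. Those of histones (-1.97), pancreatic acinar (-1.35), pancreatic islet (1.52) and sex-linked genes (4.58) moved by more than the spread of their members. Leaving out each library in turn, possible for solved entries only and chosen after seeing the data, left 16 to 18 of 18 called entries without overlap; fewer libraries overlap less easily, so this says little about stability. The ratios of Ctsg, Fcnb, Itgb2l and Ncam1 moved by over 1.5 times without the middle mutant library, to -1.55, -0.75, -0.73 and -0.94; the cause was not tested. No paired analysis was possible because the 2 groups share no library number and the table gives no library columns. The call counts could not be recomputed without single libraries, so how far they rest on the shallowest mutant library, of 0.940 M reads, was not tested.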

Other observations

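Coagulation and fibrinolysis genes had a median fold of 0.61, with 11 of 15 above 0 and Procr as the 1 call among 14 tested. Thbs1, thrombospondin 1, was level at authors' means of 2150 (mutant) and 2110 (knockout). Of 19 antioxidant genes 13 lay below 0, the median was -0.32, and none was called at 0.05; Gpx1, a glutathione peroxidase, stood at 4560 and 2350, and Sod2, the mitochondrial superoxide dismutase, at 2620 and 3550. Adipocyte genes lay above 0 in 8 of 9 with a median of 0.90 and no call, and their summed means were 818 (mutant) and 1942 (knockout) with LPS and 272 and 1494 with PBS. Skeletal muscle genes lay below 0 in 13 of 14, with a median of -0.70 and none of 3 tested called, among them Ttn, titin, at 208 and 85.2. Platelet and megakaryocyte genes had a median of -0.25 and no call. Among entries without an adjusted p in the authors' deposited table, Chil3, a chitinase-like protein of monocytes and macrophages, stood at 2920 and 432, and Abca13, a transporter, at 90.0 and 14.6.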
